A study of Rattus norvegicus and Bos taurus with 6 samples.

Results

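The genes described here encode the subunits of the oxidative phosphorylation machinery of mitochondria, read in nuclei from rat and bovine adipose tissue. Nuclear-encoded members were taken by symbol: every gene whose name starts with Ndufa, Ndufb, Ndufc, Ndufs, Ndufv, Sdha to Sdhd, Uqcr, Cox4 to Cox8 or Atp5, without assembly factors (Ndufaf) and pseudogenes. The 13 protein-coding genes of the mitochondrial genome were kept apart. This gave 100 nuclear-encoded members among 38697 genes listed in the rat Parse libraries, 86 among 25629 in the rat 10x Genomics library and 77 among 36075 in the cow library, with the 13 mitochondrially encoded genes in each. The 100 rat rows carried 95 distinct symbols, since Ndufb2, Ndufb9, Atp5mk and Atp5mpl were each listed under more than 1 gene identifier. Cox5a and Ndufa13 were not analysed in the rat Parse libraries.

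Complex I oxidizes NADH and complex II oxidizes succinate, and both pass electrons to ubiquinone. Complex III hands the electrons to cytochrome c, and complex IV uses them to reduce oxygen. Complexes I, III and IV pump protons across the inner membrane, and complex V spends that gradient to make ATP. Complex II is built from nuclear genes alone, while the other complexes join subunits from both genomes. Brown adipocytes are rich in mitochondria and let protons back through UCP1, which turns respiration into heat. White adipocytes store triglyceride and hold fewer mitochondria. Transcripts of the mitochondrial genome are made inside the organelle, not in the nucleus.

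The data were UMI counts from 6 single-nucleus RNA-seq libraries, 1 for each tissue and platform. Without replicates no difference between tissues could be tested, and every interval given in parentheses is a 95% interval that covers counting error only. The 5 rat libraries came from male Dahl SS rats (strain SS/HsdMcwiCrl) recorded as normal, untreated and fed a normal diet. Mesenteric perivascular adipose tissue (mesPVAT) was run on both platforms, and 3 depots on the Parse platform alone: retroperitoneal (RP) fat, BAT from under the scapula, and PVAT of the thoracic aorta (taPVAT). The cow library held subcutaneous white adipose tissue (WAT) from the flank. The study's cows were Holsteins early in lactation, clinically healthy and fed a common lactation diet. All tissue had been snap frozen. Sample titles class taPVAT and BAT as brown, and mesPVAT and RP fat as white. No transgene was involved, and the sources used here give neither ages nor the number of animals behind a library. The 10x library was batch 1 and the Parse libraries were batch 2, so platform and batch cannot be told apart. By the study's methods, nuclei for 10x were isolated by a different protocol from those for Parse and were sorted by DAPI stain. Platform and preparation therefore cannot be told apart either. Among nuclei for Parse, those of white fat were spun down faster than those of taPVAT, so the same holds for depot and preparation.

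The libraries held 2297 to 5887 nuclei and 845316 to 16827260 UMIs. The median nucleus had 161 UMIs in the 10x library, 346 in the Parse library labelled mesPVAT, and 213 in the Parse library labelled RP fat. The medians of BAT and taPVAT were 1706 and 1246, and that of the cow library was 3530.0. For mesPVAT and RP fat on the Parse platform, the study reported knee plots without a clear bend. It took this as a sign that true nuclei were hard to separate from background RNA. Every barcode is called a nucleus here, and background RNA was not removed. Levels are given as CPM, the UMIs of a gene scaled by all UMIs of the nuclei in question. Adipocyte markers summed to 13610 CPM in taPVAT and 14116 CPM in BAT, and to 4948 and 2132 CPM in the libraries labelled mesPVAT and RP fat, with 13533 CPM in the 10x library. Ucp1 reached 1782 CPM in taPVAT and 2072 CPM in BAT, against 63.4 and 89.9 CPM in the libraries labelled mesPVAT and RP fat. The 10x and cow libraries had 1 and 11 Ucp1 UMIs. Brown and white libraries were compared as the lower brown over the higher white value, which would stay the same if the names of the white pair were exchanged. Values of the white rat Parse pair differ from those the study gives for these tissues, so it is in doubt which library is which, and both are called by their labels throughout. No barcode was shared between the libraries, and doublets were not removed.

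Promoter sequence is shown first because most nuclear-encoded members stood higher together in the brown libraries. RefSeq promoters (GRCr8) were matched for 81 of the 95 symbols. The 250 bases before the start given for each were searched on both strands for 4 words bound by known regulators of respiratory genes. For some members part or all of this window lay inside the annotated gene. For Atp5f1c 149 bases lay before the gene, and for Atp5f1d no base did, so the shares can include bases of genes. The NRF1 core GCATGCGC was found in 11.1% of member promoters and 2.20% of all 33469 promoters. The ETS core CCGGAAG, which GABPA binds, was found in 23.5% and 7.27%. The half-site AAGGTCA of the estrogen-related receptors was found in 8.64% and 3.99%, and the YY1 word AAGATGG in 4.94% and 4.62%. Of 51 matched members at least 2-fold higher in both brown libraries, 17 held the ETS core and 7 the NRF1 core, and of 19 other tested members 2 and 1 did. The AAGGTCA half-site was in 4 of the 51 and 3 of the 19. The split into 51 and 19 was drawn from these same counts, and 31 of the 59 members called had 10 or fewer UMIs in the higher white library. These are matches of letters, not occupied sites, and whether they bear on the levels was not tested.

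The stretches printed here end just before the first annotated base of 4 genes. Each is written 5′ to 3′ on the strand of its gene, with matched words in capitals. Sdhb (chr5:158547684-158547774, plus strand) is shown for its large excess in Plin1-positive nuclei, and it carries the NRF1 core. Uqcrc2 (chr1:184598990-184599239, plus strand) is shown for a like excess, and it carries the ETS core in 2 places and the YY1 word, all on the reverse strand. Cox8b (chr1:205408274-205408523, minus strand) is an isoform read mainly in the brown libraries, and its window holds none of the 4 words. Ndufs5 (chr5:141264553-141264652, minus strand) was lower in the brown than in the white pair, and it carries the AAGGTCA half-site on the reverse strand.
Sdhb: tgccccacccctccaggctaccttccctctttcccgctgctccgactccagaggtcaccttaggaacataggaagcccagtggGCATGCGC
Uqcrc2: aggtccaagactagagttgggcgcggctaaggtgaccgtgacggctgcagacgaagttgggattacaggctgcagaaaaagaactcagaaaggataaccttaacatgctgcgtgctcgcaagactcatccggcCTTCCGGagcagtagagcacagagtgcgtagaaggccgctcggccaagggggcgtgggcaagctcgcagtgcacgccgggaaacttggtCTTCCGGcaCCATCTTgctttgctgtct
Cox8b: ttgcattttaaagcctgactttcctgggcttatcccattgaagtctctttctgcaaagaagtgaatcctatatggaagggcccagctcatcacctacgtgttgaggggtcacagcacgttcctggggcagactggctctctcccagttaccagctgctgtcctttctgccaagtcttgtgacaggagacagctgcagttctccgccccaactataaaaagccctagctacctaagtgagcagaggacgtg
Ndufs5: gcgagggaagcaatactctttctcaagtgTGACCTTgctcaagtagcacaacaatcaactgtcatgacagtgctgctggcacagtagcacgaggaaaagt

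Nuclear-encoded subunits were abundant in the brown rat libraries and in the 10x library, and scarcer in the rest. Their summed level was 3944 CPM in taPVAT, from 20116 UMIs. BAT followed at 3703 CPM from 23394 UMIs. The library labelled mesPVAT gave 1105 CPM from 1830 UMIs, and the cow library 1078 CPM from 18136. The lowest value was that of the library labelled RP fat, 1073 CPM from 907 UMIs, and the counting intervals of these 3 overlapped. Each Parse library was split into 2 sublibraries, which gave 4002 and 3883 CPM for taPVAT, 3762 and 3644 CPM for BAT, and 1141 and 1065 CPM for the library labelled mesPVAT. The 10x library of mesPVAT reached 3259.7 CPM from 4034 UMIs. Cytosolic ribosomal protein genes were also higher in it than in the Parse library of the same label, at 6628 against 1224 CPM.

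**Figure D1:**
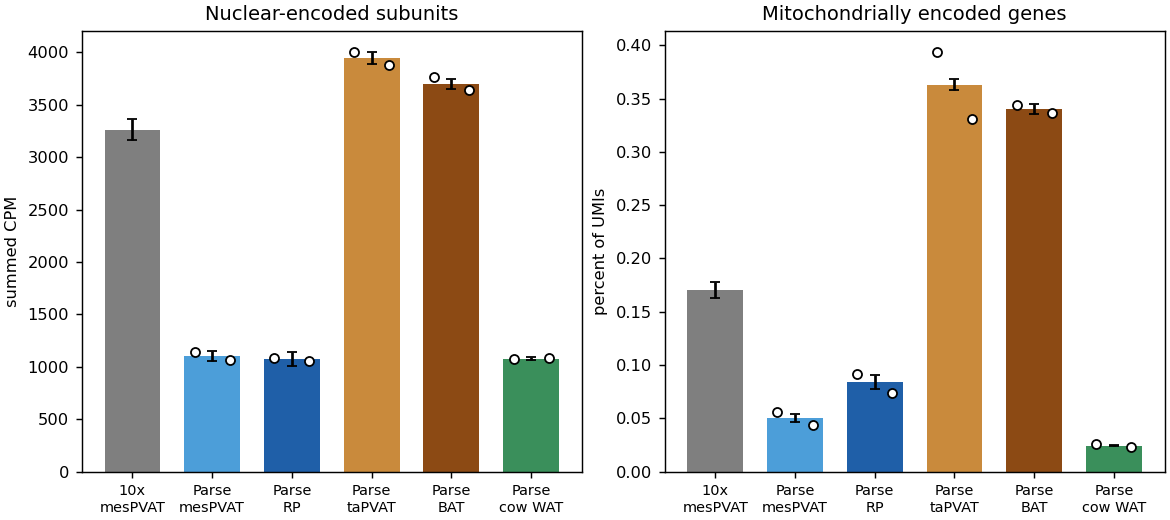
Summed level of the nuclear-encoded subunits (CPM) and share of the mitochondrially encoded genes (percent of all UMIs) in each of the 6 libraries. Bars are library values with 95% counting intervals, and open circles are the 2 Parse sublibraries. taPVAT and BAT lead in both, and the 10x library stands far above the Parse library labelled mesPVAT.

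Detection of members differed between libraries. At least 1 UMI was found for 75 of 86 members in the 10x library and for all 77 in the cow library. In the rat Parse libraries it was found for 92 of 100 under the label mesPVAT, 85 under RP fat, 89 for taPVAT and 88 for BAT. Ratios of single genes were read only at 20 or more UMIs. That left 80 members in either brown library, 71 in cow WAT and 55 in the 10x library, but 29 under mesPVAT and 14 under RP fat.

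By UMIs, Atp5f1b, Sdhb and Atp5f1a led the brown libraries. Atp5f1b, the catalytic beta subunit of ATP synthase, gave 310.0 CPM in taPVAT and 242 CPM in BAT. Sdhb, the iron-sulfur subunit of succinate dehydrogenase, gave 259 and 297 CPM, and Atp5f1a, the alpha subunit of ATP synthase, 179 and 179.8 CPM. Between genes, levels were compared per kilobase of annotated gene span. On that scale Atp5f1b stood at 48.4 CPM per kb in taPVAT and 37.7 in BAT, Cox7c, a small complex IV subunit, at 31.7 and 25.2, and Sdhb at 12.4 and 14.3. Ndufs4, an accessory complex I subunit that spans 111 kb, was among the leaders by CPM but gave 1.24 and 1.26 CPM per kb. Over 74 members, log2 CPM and log2 gene span correlated at r = 0.57 in taPVAT and 0.61 in BAT, a description over genes of 1 library each.

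The order of members was close between the brown libraries and less so elsewhere. The log2 CPM of 82 members correlated at r = 0.98 between taPVAT and BAT. The white Parse pair gave r = 0.80 over 43 members, and the Parse and 10x libraries labelled mesPVAT r = 0.16 over 59. By UMIs cow WAT was led by NDUFS4 (81.7 CPM), SDHA (70.4 CPM) and SDHB (69.6 CPM). The 10x library was led by Cox4i1, a nuclear-encoded subunit of complex IV, at 241 CPM, and by Atp5f1b at 179 CPM. Both white rat Parse libraries were led by Ndufs5, an accessory complex I subunit, at 67.6 CPM under mesPVAT and 121 CPM under RP fat.

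Nuclei were then split by Plin1, which encodes perilipin 1, the coat protein of adipocyte lipid droplets. A nucleus with at least 1 Plin1 UMI counted as positive. Positive nuclei made up 69.1% of BAT (1866 nuclei) and 60.4% of taPVAT (1635). Their share was 22.0% in the library labelled mesPVAT (665), 17.5% in cow WAT (401), 11.3% in the 10x library (668) and 9.59% in the library labelled RP fat (269). As background, nuclei led by endothelial markers, which should lack Plin1, were positive in 17.3% of cases in BAT (median 1054 UMIs), 19.4% in taPVAT (899), 7.36% under mesPVAT (535), 8.17% in the cow (4168), 3.57% on 10x (257) and 11.9% under RP fat (515). In the last of these the share was no lower than over all nuclei, so at unequal depth positivity there could not be told from background. With each nucleus thinned to 200 UMIs, 32.0% of BAT and 28.1% of taPVAT nuclei were positive, against 5.24% and 6.63% of endothelial-led ones. Under RP fat the thinned shares were 7.58% and 1.92%, and in cow WAT 1.70% and 0.833%. Thinning left out 3788 nuclei of the 10x library, 1302 under RP fat and 476 under mesPVAT, and none of the others.

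Depth and cell-type markers moved with the split, though in the cow not every list did. The median positive and negative nucleus had 2203 and 903 UMIs in BAT, 1890.0 and 713 in taPVAT, and 8295 and 3122 in cow WAT. The adipocyte list without Plin1 summed to 13282 CPM in positive and 3172 CPM in negative nuclei of BAT, to 13144 and 3121 CPM in taPVAT, and to 15054 and 1344 CPM in cow WAT. The 10 endothelial markers ran the other way, at 1122 against 5598 CPM in BAT, 1018 against 3619 CPM in taPVAT and 1201 against 2697 CPM in the cow, with none of the 10 at 0 in either class. Markers of adipocyte stem and progenitor cells stood at 279 against 1222 CPM in BAT and 753 against 3138 CPM in taPVAT. In the cow they hardly differed, at 3730 against 3809 CPM, and immune markers stood at 1007 against 1364 CPM. The positive class of the cow was thus not adipocytes alone. The part of other cell types in the ratios that follow was not tested.

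Nuclear-encoded subunits were modestly higher in Plin1-positive nuclei of the brown and cow libraries. In BAT they summed to 3937 CPM in positive and 2519 CPM in negative nuclei, a ratio of 1.56 (1.5003 to 1.63). In cow WAT the sums were 1308 and 921 CPM, a ratio of 1.42 (1.38 to 1.46). In taPVAT they were 4171 and 3016 CPM, a ratio of 1.38 (1.33 to 1.44). The sublibraries gave 1.61 and 1.51 for BAT, 1.38 and 1.39 for taPVAT, and 1.42 and 1.42 for the cow. At an equal depth of 200 UMIs per nucleus the ratio fell to 1.18 (1.07 to 1.296) in BAT and 1.13 (1.03 to 1.24) in taPVAT. For the cow, with 39 positive nuclei left, it was 1.01 (0.404 to 2.10), an interval that takes in both no difference and the unthinned size.

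Over all nuclei of the shallow libraries no such excess was resolved. The ratio was 1.21 (0.999 to 1.45) under RP fat, 1.07 (0.973 to 1.18) under mesPVAT and 1.02 (0.933 to 1.10) on the 10x platform. The last of these came to 1.11 (0.947 to 1.296) at 200 UMIs per nucleus, 1.17 (1.07 to 1.27) with nuclei classed by the other adipocyte markers and 1.31 (1.09 to 1.57) in nuclei with at least 500 UMIs. On 10x the adipocyte list without Plin1 summed to 20261 CPM in positive and 11461 CPM in negative nuclei. It summed to 6865 and 1929 CPM under mesPVAT, and to 3046 and 1451 CPM under RP fat. Of 2803 adipocyte-led nuclei on 10x, 21.4% were Plin1-positive, so its negative class held many such nuclei. The part of this in the ratios was not tested. Cytosolic ribosomal protein genes had ratios of 0.667 to 0.897 over the 6 libraries. Only the interval under RP fat took in 1, at 0.896 (0.713 to 1.12).

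By complex, with subunits assigned by symbol, succinate dehydrogenase led in the brown libraries on summed CPM. Complex II stood 2.23 (1.97 to 2.54) times as high in positive as in negative nuclei of BAT and 2.05 (1.81 to 2.33) times in taPVAT. Complex III followed at 1.86 (1.63 to 2.12) and 1.55 (1.37 to 1.76), and complex I at 1.61 (1.51 to 1.72) and 1.48 (1.39 to 1.58). Complex IV had ratios of 1.32 (1.16 to 1.49) and 1.197 (1.07 to 1.34), and complex V of 1.26 (1.17 to 1.37) and 1.09 (1.02 to 1.17). The order of the 5 complexes was the same in both, and the intervals of neighbours overlapped except those of complexes II and III in taPVAT and of complexes I and IV in either library. By the median member the order in BAT was another, with 1.63 for complex III, 1.56 for complex II and 1.54 for complex I, while in taPVAT complex II led at 1.86. On summed CPM in cow WAT complex III led at 1.86 (1.70 to 2.03), ahead of complex V at 1.51 (1.42 to 1.62), complex II at 1.38 (1.29 to 1.48) and complex I at 1.34 (1.29 to 1.405), with complex IV at 1.14 (1.01 to 1.28). In the white rat Parse libraries and the 10x library the interval of every nuclear-encoded complex took in 1.

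**Figure D2:**
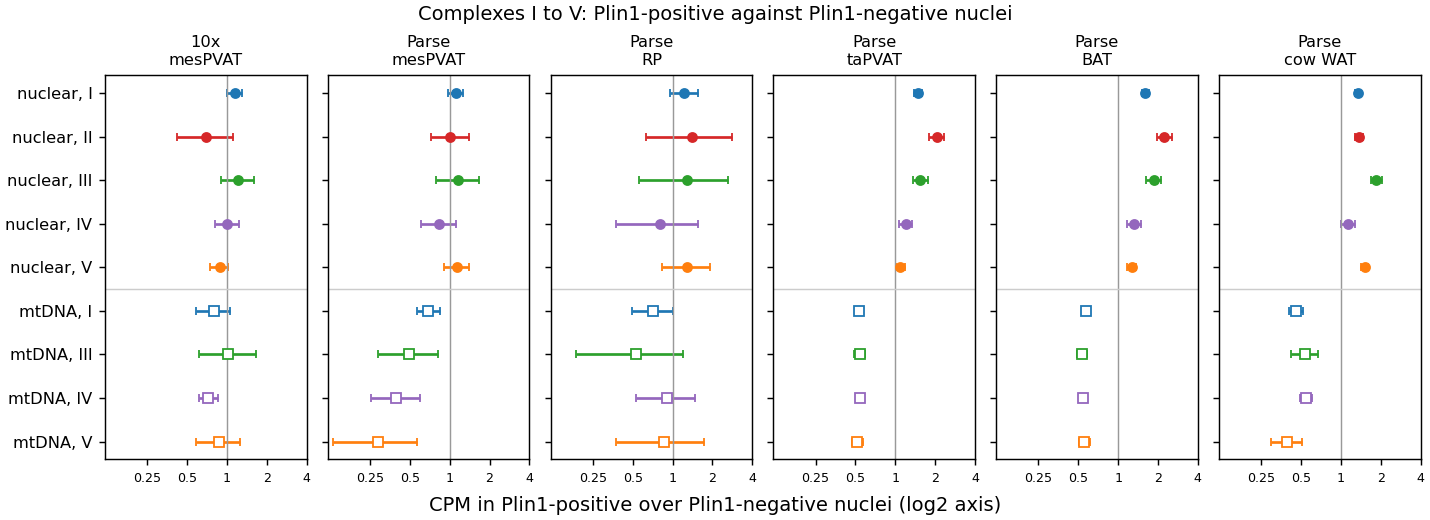
Ratio of CPM in Plin1-positive over Plin1-negative nuclei (log2 axis) for each complex in the 6 libraries, with 95% counting intervals. Filled circles are nuclear-encoded subunits and open squares, marked mtDNA, mitochondrially encoded ones. In taPVAT, BAT and cow WAT the circles lie above 1 and the squares below 1.

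Within complex II, Sdhb had the largest ratio in both brown libraries. In BAT, Sdhb stood at 336 CPM in positive and 99.8 CPM in negative nuclei, a ratio of 3.36 (2.76 to 4.14). In taPVAT it stood at 298 and 98.8 CPM, a ratio of 3.02 (2.46 to 3.74). Sdha, the flavoprotein that binds succinate, had ratios of 1.55 (1.24 to 1.95) in BAT and 1.36 (1.11 to 1.68) in taPVAT. The membrane anchor Sdhc had 1.57 (1.13 to 2.26) and 1.64 (1.18 to 2.32), and the other anchor, Sdhd, 1.19 (0.801 to 1.83) and 2.08 (1.32 to 3.45). The intervals of Sdhb and of Sdha or Sdhc did not overlap in either brown library. In the cow no such gap was seen, with SDHA at 1.57 (1.403 to 1.77), SDHB at 1.39 (1.24 to 1.56), SDHC at 1.15 (0.989 to 1.33) and SDHD at 1.19 (0.868 to 1.63). Under mesPVAT, Sdhb had 1.904 (1.16 to 3.12) from 36 and 35 UMIs, and on the 10x platform 0.747 (0.260 to 1.77).

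Single members at least 2-fold higher in positive nuclei were a minority. In BAT they were 17 of 80 (21.3%), against 12.5% of all genes tested, and 3 were as much lower, against 26.6%. In taPVAT they were 12 of 80 (15.0%) against 9.51%, with 1 lower against 30.1%. In cow WAT they were 6 of 71 (8.45%) against 5.66%, with 3 lower against 9.16%. The median member ratio was 1.43 in BAT, where the median of all genes was 0.813. The same medians were 1.37 and 0.738 for taPVAT, and 1.34 and 0.898 for the cow. A ratio over 1 was found for 69 of 80 members in BAT (86.3%, against 38.3% of all genes). It was found for 60 of 80 in taPVAT (75.0% against 33.0%) and 59 of 71 in the cow (83.1% against 39.2%).

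Elsewhere the counts of higher members were small. Under mesPVAT 2 of 29 were higher (all genes 3.76%) and 2 lower (12.1%). Under RP fat 2 of 14 were higher (6.03%) and 1 lower (13.3%). On the 10x platform 2 of 55 were higher (4.17%) and 9 lower (17.6%), with a median ratio of 0.992. The smallest ratio there among members with at least 50 UMIs was that of Atp5mc2, a subunit of the ATP synthase proton ring, at 0.278 (0.0998 to 0.623).

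Sdhb was 1 of the 5 members with the largest ratios in each brown library, among those with at least 50 UMIs. The others in BAT were the complex I subunits Ndufb2 (ENSRNOG00000010005) at 6.36 (2.67 to 19.9), Ndufb1 at 4.94 (1.297 to 41.9), Ndufc1 at 4.58 (1.91 to 14.4) and Ndufa11 at 3.36 (1.38 to 10.6), each from 52 to 166 UMIs. In taPVAT they were Uqcrc2 and the complex I subunits Ndufb6 at 4.32 (1.4004 to 21.6), Ndufc1 at 3.23 (1.32 to 10.3) and Ndufb8 at 2.66 (1.23 to 6.83). The intervals are wide. Uqcrc2, a core protein of complex III, was better measured, at 161 CPM in positive and 70.1 CPM in negative nuclei of BAT, a ratio of 2.29 (1.80 to 2.96). In taPVAT it stood at 146 and 62.9 CPM, a ratio of 2.32 (1.79 to 3.06). Ndufa10, an accessory complex I subunit, reached 2.06 (1.65 to 2.59) in BAT and 1.59 (1.28 to 2.01) in taPVAT. Atp5f1b, by contrast, had 1.13 (0.981 to 1.31) in BAT and 0.975 (0.862 to 1.11) in taPVAT, both intervals taking in 1.

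In cow WAT the 5 largest ratios among members with at least 50 UMIs fell in 4 complexes. UQCRH, the hinge protein of complex III, stood at 38.0 CPM in positive and 15.4 CPM in negative nuclei, a ratio of 2.47 (2.02 to 3.04). COX5A of complex IV had 2.17 (1.54 to 3.07), UQCRB of complex III 2.13 (1.56 to 2.91), ATP5MG of complex V 2.06 (1.55 to 2.75) and NDUFB3 of complex I 2.05 (1.42 to 2.98). Under the limits on nuclei stated by the study, COX5A came to 0.972 (0.365 to 2.22) and NDUFB3 to 0.883 (0.303 to 2.13). With nuclei classed by the other adipocyte markers in place of Plin1, ATP5MG came to 0.796 (0.379 to 2.01).

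A few members ran against the set. Atp5if1 encodes the inhibitor that blocks ATP hydrolysis by complex V. It stood at 7.77 CPM in positive and 30.7 CPM in negative nuclei of BAT, a ratio of 0.253 (0.155 to 0.415), and had 0.363 (0.221 to 0.602) in taPVAT and 0.450 (0.206 to 0.903) in the cow. Ndufs5 had 0.353 (0.227 to 0.558) in BAT and 0.582 (0.372 to 0.932) in taPVAT, the latter turning to 1.28 (0.282 to 4.78) at equal depth. Uqcr10, a small complex III subunit, had 0.489 (0.281 to 0.881) and 0.624 (0.365 to 1.10) in BAT and taPVAT. In the cow, among members with at least 50 UMIs, the smallest ratios were those of COX4I2, an isoform of a complex IV subunit, at 0.255 (0.110 to 0.522) and COX7B2 at 0.551 (0.403 to 0.743).

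**Figure D3:**
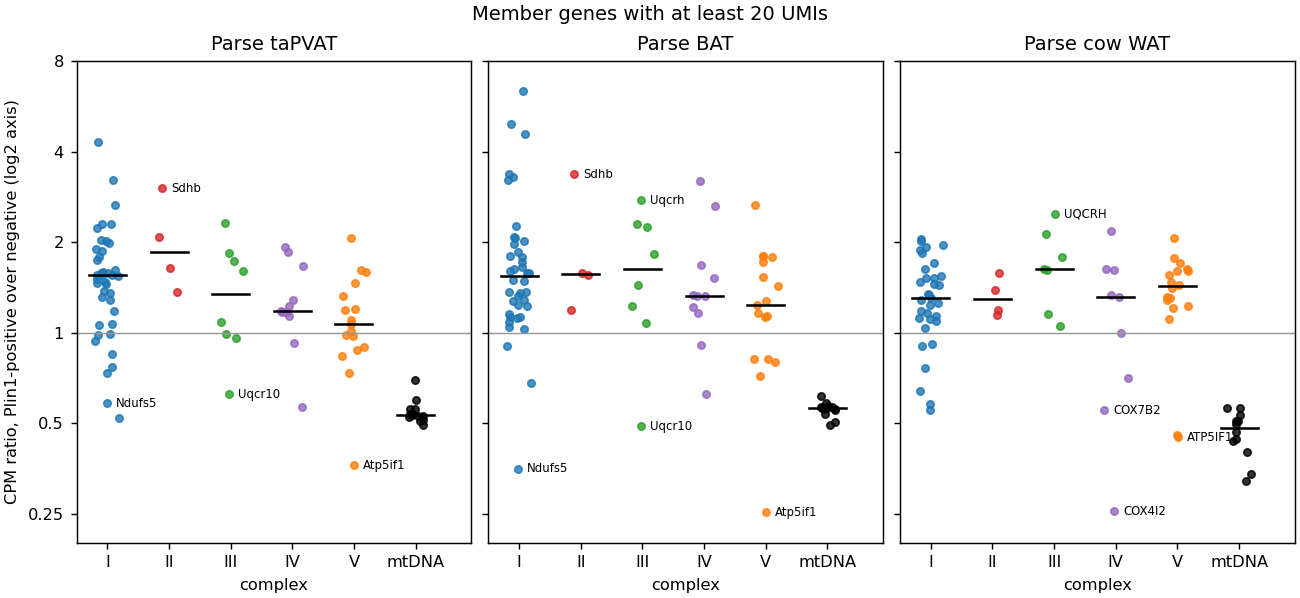
Ratio of CPM in Plin1-positive over Plin1-negative nuclei (log2 axis) for each member with at least 20 UMIs in taPVAT, BAT and cow WAT, by complex, with mitochondrially encoded genes under mtDNA. Each point is 1 gene and black bars are medians. Most nuclear-encoded members lie above 1, and the mitochondrially encoded genes plotted lie below 1.

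Member ratios were alike between the brown libraries and less so between species. Of 72 members, 56 had a ratio over 1 in both taPVAT and BAT and 7 a ratio under 1 in both (r = 0.67 for the log2 ratios). Of 52 members, 46 were over 1 in both BAT and cow WAT, at r = 0.22. The share of all genes over 1 in both libraries of a pair is not given here, so these counts have no background. In the brown libraries members with longer gene spans tended to larger ratios, at r = 0.34 over 74 members in BAT and 0.35 in taPVAT, but to smaller ones under mesPVAT (r = -0.35 over 29) and RP fat (r = -0.40 over 14). Each r is a description over genes that share a library and its depth.

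Within Plin1-positive nuclei of the brown libraries, Ucp1 divided the members little. Positive nuclei with a Ucp1 UMI held 4005 CPM of nuclear-encoded subunits in BAT against 3266 CPM without one, a ratio of 1.23 (1.16 to 1.29). In taPVAT the ratio was 1.18 (1.12 to 1.24). Thinned to 500 UMIs per nucleus the ratios were 1.04 (0.965 to 1.13) and 1.06 (0.981 to 1.15), so a difference was not detectable at that depth. Classed by marker lists instead, adipocyte-led nuclei held 4277 CPM in taPVAT and 4018 CPM in BAT, and endothelial-led nuclei 2632 and 2454 CPM. In the cow, adipocyte-led nuclei held 1418 CPM, immune-led nuclei 1142 CPM and endothelial-led nuclei 876 CPM.

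Between brown and white rat Parse libraries the members differed more than between the classes of nuclei within them. The lower brown sum was 3.35 (3.20 to 3.52) times the higher white sum, while the same ratio was 0.648 (0.615 to 0.682) for cytosolic ribosomal protein genes. In whole libraries, fewer adipocyte nuclei and less RNA per nucleus cannot be told apart. Among Plin1-positive nuclei, taPVAT and BAT held 4171 and 3937 CPM against 1155 and 1263 CPM under mesPVAT and RP fat, a ratio of 3.12 (2.63 to 3.72). Among negative nuclei it was 2.34 (2.18 to 2.51). The white positive nuclei held less of the adipocyte list without Plin1, at 6865 and 3046 CPM. Its part in the ratio was not tested.

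Of 82 members tested, 59 were at least 2-fold higher in both brown than in both white libraries and 2 at least 2-fold lower. Of all genes tested, 5.31% were as much higher and 47.4% as much lower. The median of lower brown over higher white was 3.05 for the members and 0.251 for all genes. The levels of 76 members lay higher in the brown pair without overlap, as did those of 20.4% of all genes. The minimum of 20 UMIs could be reached through the deep brown libraries alone, and 31 of the 59 had 10 or fewer UMIs in the higher white library. A minimum of 20 UMIs over the white pair, chosen after the data were seen, left 43 members. Of these 28 were higher and 2 lower, against 5.38% and 47.7% of all such genes. In Plin1-positive nuclei 29 of 82 were higher and 3 lower, against 4.83% and 36.1% of all genes, and the median was 1.38 against 0.289. Here too brown UMIs alone could reach the minimum. A gene without a UMI in a library was set to 3 counts, which lowers its ratio where that library is white. The positive nuclei under RP fat held only 107694 UMIs, so these counts cannot be set against those over all nuclei.

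**Figure D4:**
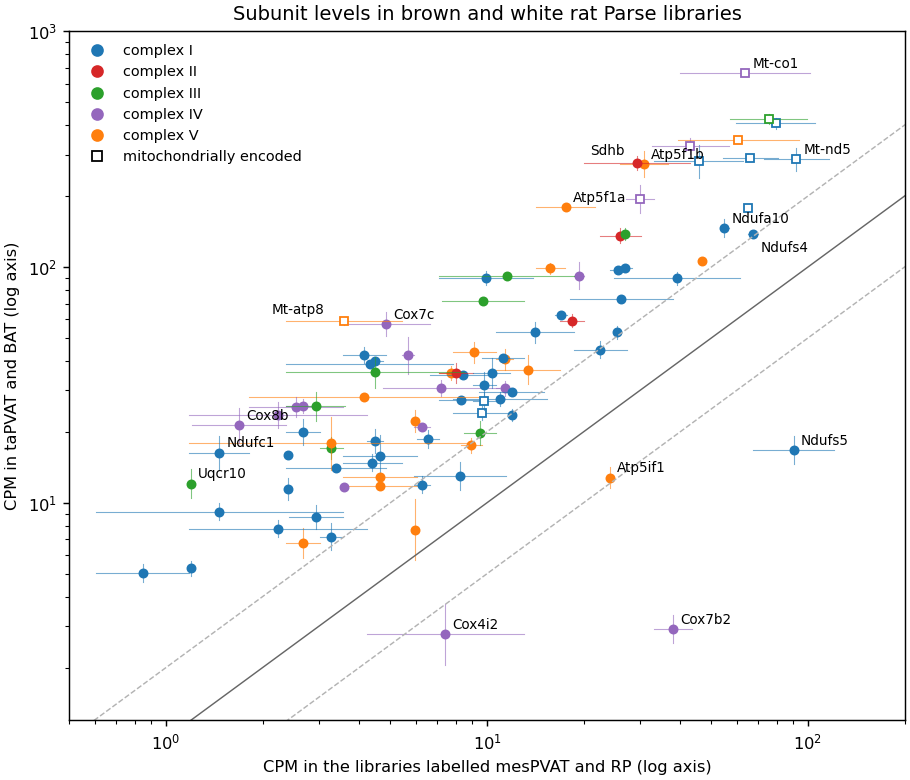
CPM of each member in taPVAT and BAT (vertical, log axis) against the libraries labelled mesPVAT and RP fat (horizontal, log axis). Points are geometric means of each pair and lines join its 2 values, open squares are mitochondrially encoded, the solid line is equality and the dashed lines are 2-fold differences. Most members lie above equality, with Ndufs5, Cox7b2, Atp5if1 and Cox4i2 below it.

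Subunits of the ATP synthase head were among the widest gaps with many UMIs. Atp5f1a stood at 179 and 179.8 CPM in taPVAT and BAT against 21.7 and 14.2 CPM under mesPVAT and RP fat, a lower-to-higher ratio of 8.22 (5.89 to 11.8). Atp5f1b stood at 310.0 and 242 CPM against 26.0 and 36.7 CPM, a ratio of 6.59 (4.62 to 9.73). Each pair lay apart from the other for both genes. Sdhb stood at 259 and 297 CPM against 42.9 and 20.1 CPM, a ratio of 6.04 (4.76 to 7.79), above those of Sdha at 4.17 (3.14 to 5.67), Sdhd at 3.57 (2.11 to 6.49) and Sdhc at 2.75 (1.70 to 4.78), with overlapping intervals.

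The next members had few white UMIs and passed the minimum through the brown libraries, so their values are given as a description. Cox7c stood at 64.3 and 51.1 CPM against 6.64 and 3.55 CPM, a ratio of 7.70 (4.25 to 15.6). Ndufa5 of complex I had 8.13 (4.06 to 19.0), Cox7b of complex IV 7.97 (3.34 to 24.9), and Ndufa4, now placed in complex IV despite its name, 8.08 (3.11 to 30.0). Uqcr10, with 2 and 1 UMIs in the white pair, had 8.65 (2.30 to 72.9), and Ndufc1, with 3 and 1, had 7.69 (2.53 to 38.2).

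Ndufs4 was higher in the brown pair but short of 2-fold. It stood at 136 and 139 CPM there against 65.2 and 69.8 CPM in the white pair, a ratio of 1.96 (1.498 to 2.60). A few members did not follow. Ndufs5 stood at 19.2 and 14.6 CPM against 67.6 and 121 CPM, so that the higher brown over the lower white level was 0.284 (0.215 to 0.376). Cox7b2, a complex IV isoform known from testis, stood at 3.33 and 2.53 CPM against 43.5 and 33.1 CPM, a ratio of 0.101 (0.0517 to 0.190) on the same measure. Atp5if1 had 0.5997 (0.401 to 0.910), and Cox4i2 0.882 (0.355 to 2.48), an interval that takes in 1. On the 10x platform the same white depot gave 3 UMIs of Ndufs5 and no UMI of Cox7b2. The limit of 3 counts set for genes without a UMI is 2.42 CPM there.

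Several subunits of complex IV come in isoforms. Cox8b, the form of Cox8a known from muscle and brown fat, made up 68.3% (61.1 to 74.8) of the UMIs of the pair in taPVAT and 60.8% (53.3 to 67.8) in BAT. In the white Parse libraries it had 2 UMIs each, shares of 25.0% (3.19 to 65.1) under mesPVAT and 40.0% (5.27 to 85.3) under RP fat, and both intervals overlap those of the brown libraries. Between the Plin1 classes it had 1.52 (0.849 to 2.95) in BAT and 0.564 (0.384 to 0.844) in taPVAT, and with taPVAT nuclei classed by the other adipocyte markers it was 4.27 (0.752 to 170.0). Cox4i2, the oxygen-responsive form of Cox4i1, made up 3.44% (2.08 to 5.32) of its pair in taPVAT and 2.49% (1.33 to 4.21) in BAT. Its share was 18.4% (7.74 to 34.3) under mesPVAT, 39.3% (21.5 to 59.4) under RP fat and 24.8% (19.5 to 30.7) in the cow, and 0 of 298 UMIs on the 10x platform, which allows up to 1.23% by the exact interval. The rat Parse shares rest on few UMIs of Cox4i2, 19 in taPVAT, 13 in BAT, 7 under mesPVAT and 11 under RP fat. Each is below the minimum of 20. Cox7a1, the heart and muscle form, made up 32.1% (23.3 to 41.8) of COX7A1 and COX7A2 in the cow, and 1.85% (0.225 to 6.53) and 0.588% (0.0149 to 3.23) in taPVAT and BAT. The brown shares rest on 2 and 1 UMIs of Cox7a1, below the 20 at which ratios of single genes were read. Cox6a2, the muscle form of Cox6a1, had at most 1 UMI in any library. Ndufa4l2, a relative of Ndufa4, made up 11.2% (6.10 to 18.4) of its pair in the cow, 2.50% (0.817 to 5.74) in taPVAT and 1.87% (0.611 to 4.32) in BAT. These rest on 13, 5 and 5 UMIs of Ndufa4l2, also below that minimum.

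The mitochondrially encoded genes followed the depots but ran opposite to the nuclear-encoded subunits between the Plin1 classes. They made up 0.363% of UMIs in taPVAT and 0.340% in BAT, 0.171% on the 10x platform, 0.0839% under RP fat, 0.0504% under mesPVAT and 0.0246% in the cow. The lower brown level was 4.05 (3.76 to 4.38) times the higher white one, and 12 of 13 genes were at least 2-fold higher in both brown libraries, against 5.31% of all genes, with Mt-nd4l at 1.8999 (1.00 to 4.05). With the minimum of 20 UMIs set over the white pair, a filter chosen after the data were seen, 11 of 12 were higher. Of all such genes 5.38% were. Among these mitochondrial genes the widest gap was that of Mt-co1, the catalytic subunit of complex IV, at 6.33 (5.11 to 7.93). Mt-atp8, a small complex V subunit, had 10.4 (5.43 to 23.0). With 9 and 2 UMIs in the white pair it passed the minimum only through the brown libraries. More than 3% of UMIs were mitochondrial in 58 nuclei of taPVAT and 48 of BAT, and in 0 to 7 nuclei of each other library. A single taPVAT nucleus held 431 mitochondrial among 478 UMIs. Under the limits on nuclei stated by the study the shares were 0.323% in taPVAT and 0.301% in BAT.

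Plin1-positive nuclei held less mitochondrial RNA per UMI, though not per nucleus, in each of the 6 libraries. Per UMI, the ratio of positive to negative nuclei was 0.497 (0.463 to 0.534) in the cow, 0.556 (0.539 to 0.573) for BAT and 0.535 (0.519 to 0.552) for taPVAT. It was 0.564 (0.478 to 0.663) under mesPVAT, 0.750 (0.578 to 0.961) under RP fat and 0.771 (0.676 to 0.876) on the 10x platform. The sublibraries gave 0.486 and 0.616 for taPVAT, whose intervals did not overlap, 0.577 and 0.536 for BAT, and 0.467 and 0.527 for cow WAT. Single genes ranged from 0.494 to 0.698 in taPVAT and from 0.492 to 0.613 in BAT, and no complex stood apart in either. At 200 UMIs per nucleus taPVAT kept a ratio of 0.673 (0.613 to 0.738) and BAT one of 0.662 (0.601 to 0.729), against 0.990 (0.763 to 1.27) on the 10x platform. With nuclei classed by the other adipocyte markers, the ratio in BAT came to 0.905 (0.802 to 1.03), with 96 nuclei in the negative class. All these ratios are shares of UMIs, and positive nuclei were deeper. In BAT 1866 positive nuclei held 15856 mitochondrial UMIs, and 833 negative nuclei held 5631. In taPVAT 1635 positive nuclei held 12714, and 1073 negative nuclei held 5808. Counted per nucleus, the positive class was thus not lower.

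By marker list, endothelial-led nuclei held 5309 CPM of mitochondrially encoded genes in taPVAT and 6285 CPM in BAT, against 3196 and 3029.7 CPM in adipocyte-led nuclei. Nuclei that no list led held 9110.1 CPM in taPVAT at a median of 514 UMIs. Within Plin1-positive nuclei thinned to 500 UMIs, those with a Ucp1 UMI stood at 0.713 (0.657 to 0.773) of the others in BAT and 0.810 (0.742 to 0.884) in taPVAT, while nuclear-encoded subunits did not detectably differ.

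Which mitochondrial gene was read most depended on the library. COX3 gave 46.0% of mitochondrially encoded UMIs on the 10x platform and 6.22% to 9.72% in the Parse libraries. COX1 led in taPVAT at 17.7%, in BAT at 20.2% and in the cow at 36.4%. ND5, a proton-pumping subunit of complex I, had the largest share under mesPVAT at 14.5% (12.2 to 17.1) and under RP fat at 13.8% (11.4 to 16.6). Its lead was not resolved in either. ND6 had 12.9% (10.7 to 15.4) under mesPVAT, and ND4 12.6% (10.2 to 15.2) under RP fat. Over the 13 genes the profiles of taPVAT and BAT correlated at r = 0.98, and that of the 10x library with the Parse profiles at r = -0.08 to 0.23. ND6, read from the other strand of the mitochondrial genome, gave 12.9% under mesPVAT and 5.02% to 7.76% in the other rat Parse libraries.

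**Figure D5:**
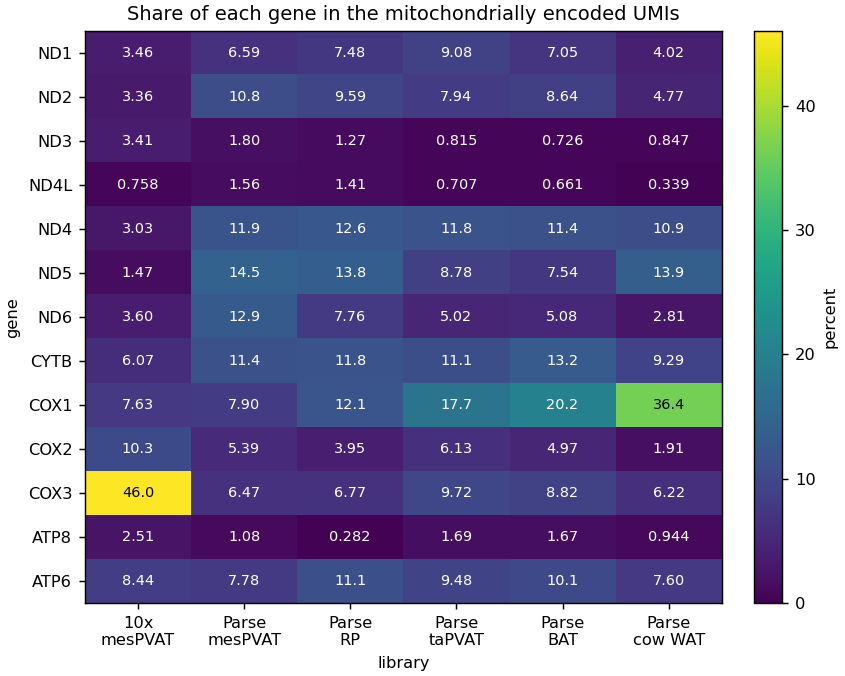
Share of each mitochondrially encoded gene in the UMIs of all 13 genes (percent, by colour and printed value) in each of the 6 libraries. COX3 fills 46.0% of the 10x column, and COX1 is the largest share in taPVAT, BAT and cow WAT.

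Other genes of mitochondrial metabolism were read against the same background, in which 5.31% of all genes were at least 2-fold higher in both brown libraries and the median of lower brown over higher white was 0.251. Enzymes of the TCA cycle, which supply the chain with NADH and succinate, had 15 of 17 at least 2-fold higher in both brown libraries and a median of 4.30. Their Plin1 ratios had a median of 2.41 in BAT and 2.14 in taPVAT. Electron carriers and entry points had 10 of 18 higher and a median of 2.63. Gpd2, the glycerophosphate dehydrogenase of the inner membrane, had Plin1 ratios of 5.74 (4.73 to 7.03) in taPVAT and 4.93 (4.15 to 5.92) in BAT, but 0.816 (0.719 to 0.925) in the cow.

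Of assembly factors, complex I assembly genes had 1 of 14 at least 2-fold higher in both brown libraries, with a median of 0.763, and genes for assembly of complexes II to V had 8 of 29, with a median of 1.54, against the same 5.31% and 0.251 of all genes. Cox10, needed to make heme A for complex IV, had Plin1 ratios of 4.80 (3.52 to 6.71) in taPVAT and 3.77 (2.89 to 5.01) in BAT. Biogenesis and transcription genes had 7 of 20 higher, with a median of 1.43. Among these Ppargc1b, a coactivator of respiratory genes, stood at 1784 and 2309 CPM in taPVAT and BAT with Plin1 ratios of 7.79 (6.91 to 8.81) and 8.75 (7.83 to 9.80), and PPARGC1B had 4.88 (4.51 to 5.29) in the cow. Esrrg, an estrogen-related receptor, had 6.99 (6.16 to 7.96) and 11.8 (10.2 to 13.7) in the same order. Uncoupling and nucleotide exchange genes had 8 of 12 higher, with a median of 2.47, and brown adipocyte genes 11 of 11, with a median of 10.5. The latter were listed as markers of brown fat, so their count is a reference and not a test. Ucp1 was also on the uncoupling list, and Esrrg and Ppargc1a on the biogenesis list, so the counts of those lists share brown markers. For all these lists the minimum of 20 UMIs was taken over the brown and white libraries together, which brown UMIs alone can reach. The Plin1 ratios of Ucp1 were 7.64 (6.78 to 8.63) in taPVAT and 9.71 (8.59 to 11.02) in BAT.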

How the data were processed

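The authors deposited unnormalized UMI counts per gene and barcode, as filtered matrices. For the Parse libraries they separated reads by species, ran split-pipe against GRCr8 (rat) or ARS-UCD1.3 (cow) and joined 2 sublibraries. The 10x library was made with Cell Ranger 7.1.0. The supplementary methods name an Rnor assembly of the rat genome as its reference, not GRCr8, and its annotation is uncertain. Whether intronic reads were counted is not given in the sources used here.

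Here all deposited barcodes were kept. UMIs were summed over nuclei and scaled to CPM (python 3.11.15, numpy 2.4.6, scipy 1.17.1, pandas 2.3.3), with exact Poisson, binomial or conditional binomial intervals at 95%. No p-value was computed, since each group is 1 library. A gene was called at a 2-fold ratio among those with at least 20 UMIs, and a gene with no UMI was given a limit of 3 counts. The ratio intervals were run on counts simulated with Poisson error alone, which is the error they assume. This does not test spread between nuclei, sublibraries or animals. Members and lists were chosen with earlier results of these data known. Named members were the 5 with the most UMIs and the 5 with the largest and smallest Plin1 ratio per library, the 10 most and least different between brown and white (each among members with at least 50 UMIs), the isoform sets, the succinate dehydrogenase genes, the mitochondrial genes and the top 2 genes of each other list, of which not all are reported here. Alternatives were other filters on nuclei, thinning, another adipocyte class, another scaling, fold and UMI minimum. Leaving out libraries and the filter on white UMIs were chosen after the data were seen.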

Additional observations from a re-analysis of the deposited data

How the results depend on the processing

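Summed values not listed here moved by less than their counting interval, and the cause of the moves was not tested. With CPM taken without mitochondrial genes and the top gene, nuclear sums were 3370.1 CPM (10x mesPVAT), 1167 CPM (mesPVAT), 4494 CPM (taPVAT), 4236 CPM (BAT) and 1213 CPM (cow WAT), mitochondrial shares 0.412% (taPVAT), 0.388% (BAT) and 0.0276% (cow WAT), nuclear Plin1 ratios 1.49 (taPVAT), 1.68 (BAT) and 1.34 (cow WAT), mitochondrial Plin1 ratios 0.575 (taPVAT) and 0.596 (BAT), and the brown-to-white ratio 3.63. With nuclei classed by the adipocyte list without Plin1, nuclear ratios were 1.17 (10x mesPVAT), 1.87 (taPVAT) and 1.49 (cow WAT) and mitochondrial ratios 0.622 (taPVAT), 0.905 (BAT) and 0.413 (cow WAT), and the direction reversed for ATP5MG in the cow (0.796) and Cox8b in taPVAT (4.27). With at least 2 Plin1 UMIs against none, mitochondrial ratios were 0.621 (10x mesPVAT), 0.470 (mesPVAT), 0.449 (RP fat), 0.487 (taPVAT), 0.520 (BAT) and 0.398 (cow WAT), and the nuclear ratio was 1.51 (cow WAT). In nuclei with at least 500 UMIs, nuclear sums were 2696 CPM (10x mesPVAT) and 966 CPM (RP fat), mitochondrial shares 0.115% (10x mesPVAT), 0.0388% (mesPVAT), 0.0605% (RP fat) and 0.338% (taPVAT), mitochondrial ratios 0.474 (10x mesPVAT), 0.670 (mesPVAT) and 0.608 (taPVAT) and the nuclear ratio 1.31 (10x mesPVAT). Under the study's limits on nuclei, nuclear sums were 3878 CPM (taPVAT), 3654 CPM (BAT) and 920.4 CPM (cow WAT), mitochondrial shares 0.154% (10x mesPVAT), 0.323% (taPVAT), 0.301% (BAT) and 0.0351% (cow WAT), nuclear ratios 1.45 (taPVAT) and 1.23 (cow WAT) and mitochondrial ratios 0.656 (taPVAT), 0.577 (BAT) and 0.732 (cow WAT), and the direction reversed for COX5A (0.972) and NDUFB3 (0.883) in the cow. Thinned to 200 UMIs, nuclear ratios were 1.11 (10x mesPVAT), 0.951 (mesPVAT), 1.13 (taPVAT), 1.18 (BAT) and 1.01 (cow WAT), that of mesPVAT now below 1. Mitochondrial ratios at this depth were 0.990 (10x mesPVAT), 0.673 (taPVAT), 0.662 (BAT) and 0.29999 (cow WAT), and Ndufs5 in taPVAT reversed (1.28). Both cow ratios rest on 39 positive nuclei of 200 UMIs each. Mitochondrial UMIs are so few there that no size can be read from the mitochondrial ratio, which is given without an interval. At a fold of 1.5 the members higher in positive nuclei numbered 5 (10x mesPVAT), 8 (mesPVAT), 4 (RP fat), 35 (taPVAT), 38 (BAT) and 27 (cow WAT), with 14.2, 9.41, 17, 15.9, 20 and 11.5% of all genes called. Without a minimum of UMIs they numbered 11 (10x mesPVAT), 20 (mesPVAT) and 52 (RP fat) of 75, 92 and 85, with 33.1, 15 and 46.6% of all genes called. The members higher in both brown libraries fell from 59 to 28 with the minimum set over the white pair, and numbered 61 to 67 when any of the 4 libraries was left out. Without BAT, the lower of the brown pair, the brown-to-white ratio was 3.57. A ratio of lower brown over higher white can only stay or rise when a library is left out. Leaving out libraries is therefore no check on these values, and the share of all genes called was not computed for it. The filter on white UMIs and the leaving out of libraries were chosen after the data were seen. No paired analysis was possible because each group is 1 library.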
